A study of Mus musculus with 36 samples.

Results

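The genes of vascular endothelial growth factor (VEGF) and apelin signalling were followed through the switching on and off of an Akt1 transgene in the mouse heart. The 8 genes were the ligands Vegfa, Vegfb, Vegfc and Vegfd, the VEGF receptors Kdr and Flt1, the peptide Apln and its receptor Aplnr. They were found by taking every probe set whose annotation named 1 of these genes and no other, which gave 17 probe sets, 14 on chip 430A and 3 on chip 430B. All 17 passed the filter on dim signals. The 8 genes stand among 18193 genes with such a probe set, of which 14650 had at least 1 past the filter.

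RNA of 18 hearts was hybridised to both chips, giving 36 arrays. All hearts were labelled as coming from male mice of the strain Tet-myrAkt1/αMHC-tTA (the first letter of the promoter name is damaged in the labels), so every group carried both transgenes. The tetracycline-controlled activator tTA is made under the αMHC promoter in heart muscle cells and switches on myrAkt1, a form of Akt1 that is held at the membrane and stays active. There were 4 hearts before induction (mice of 12 weeks), 4 after 2 weeks of induction (14 weeks), 4 after 2 weeks of induction and 2 days of repression (14 weeks and 2 days), 3 after 6 weeks of induction (18 weeks) and 3 after 6 weeks of induction and 2 weeks of repression (20 weeks). These are called hearts before induction, 2-week hearts, early repressed hearts, 6-week hearts and late repressed hearts. Age rose with the stages while the transgene went on and off. Hearts before induction and 6-week hearts differ in age as well as in induction, and these cannot be told apart in that comparison, whereas 2-week and early repressed hearts were 2 days apart in age. Hearts without the transgenes were not analysed here.

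VEGF-A is the main growth factor of blood vessel endothelium and signals through the tyrosine kinase receptor KDR (VEGFR2), while FLT1 (VEGFR1) binds VEGF-A and VEGF-B tightly and can hold ligand away from KDR. VEGF-B is made strongly by heart muscle and binds FLT1 but not KDR. VEGF-C acts on the lymphatic receptor FLT4 and, once processed, on KDR, while VEGF-D of the mouse acts on FLT4. Apelin is a small secreted peptide that is made by endothelium and other cells of the heart and signals through APLNR, a G protein-coupled receptor of endothelium and heart muscle. The questions of the design were how these genes stood while the transgene was on for a short or a long time, and where they stood after it was switched off.

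The windows of 250 bases before the transcription start of 5 of the genes are shown because 4 of them (Vegfa, Vegfb, Apln and Kdr) had lower signals in 6-week hearts and 1 (Vegfd) had a higher one. They are RefSeq sequences of build GRCm38.p6, printed 5′ to 3′ on the gene's strand, with the letters GCGTG, or CACGC for the opposite strand, in capitals. The windows are chr17:46032378-46032627 (minus strand) for Vegfa, chr19:6987652-6987901 (minus) for Vegfb, chrX:48034854-48035103 (minus) for Apln, chr5:75978456-75978705 (minus) for Kdr and chrX:164373272-164373521 (plus) for Vegfd. The genes themselves span chr17:46016993-46032377, chr19:6982472-6987651, chrX:48025146-48034853, chr5:75932827-75979072 and chrX:164373522-164402650, so the Kdr window lies before a start inside the annotated gene.
Vegfa: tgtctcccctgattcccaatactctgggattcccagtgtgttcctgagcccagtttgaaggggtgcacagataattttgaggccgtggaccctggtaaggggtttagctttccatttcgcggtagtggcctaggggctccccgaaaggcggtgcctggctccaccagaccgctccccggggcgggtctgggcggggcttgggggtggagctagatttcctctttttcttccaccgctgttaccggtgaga
Vegfb: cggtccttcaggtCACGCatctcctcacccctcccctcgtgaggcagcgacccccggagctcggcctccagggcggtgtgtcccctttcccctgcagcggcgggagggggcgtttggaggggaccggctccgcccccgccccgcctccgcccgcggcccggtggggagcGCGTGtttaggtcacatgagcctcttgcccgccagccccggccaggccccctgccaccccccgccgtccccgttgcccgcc
Apln: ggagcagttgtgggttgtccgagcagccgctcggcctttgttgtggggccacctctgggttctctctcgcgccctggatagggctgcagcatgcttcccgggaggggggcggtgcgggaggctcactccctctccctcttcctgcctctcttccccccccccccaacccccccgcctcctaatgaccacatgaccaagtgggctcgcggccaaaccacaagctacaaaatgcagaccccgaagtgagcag
Kdr: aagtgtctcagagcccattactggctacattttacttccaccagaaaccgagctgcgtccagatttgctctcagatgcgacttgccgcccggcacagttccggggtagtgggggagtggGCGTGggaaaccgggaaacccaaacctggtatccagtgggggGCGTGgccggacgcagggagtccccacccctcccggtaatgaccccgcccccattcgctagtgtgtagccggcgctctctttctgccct
Vegfd: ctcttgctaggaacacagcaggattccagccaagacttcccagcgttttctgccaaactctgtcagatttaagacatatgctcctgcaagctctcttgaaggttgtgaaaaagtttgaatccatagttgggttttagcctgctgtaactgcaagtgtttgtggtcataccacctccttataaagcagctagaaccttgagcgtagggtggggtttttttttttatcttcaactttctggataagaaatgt

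The motifs searched on both strands were ACGTG and GCGTG, the core letters bound by hypoxia-inducible factors, GTAAACA of FoxO factors, which Akt is known to hold out of the nucleus, and AAGGTCA of the oestrogen-related receptors. GCGTG stood 237 and 81 bases before the start of Vegfb, the first on the opposite strand, and 131 and 89 bases before that of Kdr. The Flt1 window held 1 GCGTG, 184 bases before the start on the opposite strand. None of the 4 motifs was found in the Vegfa, Apln, Vegfd and Vegfc windows. Of 32851 promoter windows of the same length, 38.6% held ACGTG or GCGTG, 3.17% held GTAAACA and 4.08% held AAGGTCA. The short core letters are therefore common in such windows, and a match is a description of letters only.

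The deposited signals are linear intensities on a common scale within each chip (trimmed mean 500.2 on 430A and 122.5 on 430B), so a signal is compared between hearts for 1 probe set. Signals of different probe sets are set together only to pick the brightest of a gene and in the summed marker signals. The labelled transgene was checked first. The Akt1 probe set 1425711_a_at averaged 547.8 before induction, 2878 in 2-week hearts, 718 in early repressed hearts, 2365 in 6-week hearts and 753 in late repressed hearts. The other Akt1 probe sets were not raised. All 10 heart muscle markers passed the filter. Hearts 3 and 4 before induction carried Xist, the transcript of the inactive X chromosome, at up to 2518 on 1427262_at against at most 92.8 in any heart of the later groups, which goes against their label as male. Heart 3 of the 6-week group had a 3′ to 5′ signal ratio of Actb of 3.71 on 430A and 4.20 on 430B, where the other hearts lay between 0.952 and 1.92 on 430A. A high ratio is a sign of RNA that was degraded or incompletely copied. The ratio also moved with repression: on 430A it was 1.04 to 1.18 in early repressed hearts against 1.26 to 1.92 in 2-week hearts, and 0.952 to 1.22 in late repressed hearts against 1.24 to 3.71 in 6-week hearts, with no overlap. Repression differences are therefore also given from a model with this ratio as a covariate. For every probe set the slope of that model rests largely on 6-week heart 3. These fits are thus not independent of the fits without that heart. They cannot fully separate the ratio from repression. The p-values below are limma's, adjusted over all probe sets of a chip by the Benjamini-Hochberg method, and a difference was called at an adjusted p under 0.05.

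Vegfb, a ligand made by heart muscle, fell whenever the transgene was on. Its probe set 1451803_a_at gave signals of 4496, 3904, 3988 and 4701 before induction, 2427, 2509, 2611 and 1943 in 2-week hearts, 3996, 3538, 3728 and 4069 in early repressed hearts, 2197, 2237 and 1822 in 6-week hearts, and 3320.3, 3582 and 3994 in late repressed hearts. The 7 hearts with the transgene on lay below all 11 others. Its level averaged 2372 ± 296 in 2-week hearts against 4272 ± 387 before induction (SD, n = 4 each), a log2 difference of -0.84 (SE 0.113, adjusted p = 0.00013). In 6-week hearts it averaged 2085 ± 229 (n = 3), a log2 difference of -1.02 from hearts before induction (SE 0.122, adjusted p = 1.85e-05). The fall did not deepen measurably between the stages: 6-week and 2-week hearts overlapped and differed by -0.18 (95% interval -0.43 to 0.08, adjusted p = 0.42). Without both Xist-positive hearts the differences from hearts before induction were -0.82 at 2 weeks and -0.995 at 6 weeks (adjusted p = 0.0057 and 0.00062), and without 6-week heart 3 the last was -0.93 (adjusted p = 0.00012).

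Vegfb was higher again after both repressions. It averaged 3833 ± 245 in early repressed hearts, 0.69 above 2-week hearts on the log2 scale (SE 0.113, adjusted p = 0.000656), 2 days after the switch. In late repressed hearts it averaged 3632 ± 339, which was 0.79 above 6-week hearts (SE 0.13, adjusted p = 0.000599). With the Actb ratio in the model these differences were 0.60 and 0.63 (adjusted p = 0.0020 and 0.0096). Both repressed groups overlapped the hearts before induction, and the differences of -0.15 and -0.23 did not pass the test (adjusted p = 0.48 and 0.33). Ordered by mean, the groups ran from before induction over early repressed, late repressed and 2-week hearts to 6-week hearts, and the step from late repressed to 2-week hearts was the only one between neighbours whose hearts did not overlap.

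Vegfa, the main endothelial growth factor, was lower after the long induction and not measurably after the short one. Its brighter probe set, 1420909_at, gave 707, 870.0, 1335 and 1104 before induction, 869, 838, 704 and 859.7 in 2-week hearts, 1364, 1149.9, 1465 and 1119.8 in early repressed hearts, 535, 459 and 498 in 6-week hearts, and 1169, 1184 and 1235 in late repressed hearts. The 3 6-week hearts lay below all 15 others. Their mean of 497 ± 38.3 was about 0.495 of the mean of 1004 ± 275 before induction, a log2 difference of -0.91 (SE 0.163, adjusted p = 0.000781). It was -0.91 without 6-week heart 3 (adjusted p = 0.0030) and -0.61 without both Xist-positive hearts (adjusted p = 0.018). The difference of 2-week hearts from hearts before induction, -0.25, did not pass the test (adjusted p = 0.35), and 6-week hearts stood 0.66 log2 units below 2-week hearts (log2 difference -0.66, SE 0.163, adjusted p = 0.0194). Without heart 2 of the 6-week group the last difference was -0.61 and missed the threshold (adjusted p = 0.063).

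Vegfa was higher after both repressions. In early repressed hearts it was 0.61 higher than in 2-week hearts on the log2 scale (SE 0.151, adjusted p = 0.00963), with no overlap between the groups. In late repressed hearts it was 1.19 higher than in 6-week hearts (SE 0.175, adjusted p = 0.000233), a ratio of means of 2.4. With the Actb ratio in the model the differences were 0.63 and 1.24 (adjusted p = 0.017 and 0.0015). Early repressed hearts also stood 0.36 above hearts before induction, which passed the test only without the 2 Xist-positive hearts (0.66, adjusted p = 0.0274; 0.178 with them). In order of the mean the groups ran from early repressed over late repressed hearts, hearts before induction and 2-week hearts to 6-week hearts, and all neighbours overlapped except 2-week and 6-week hearts.

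The other Vegfa probe set, 1451959_a_at, whose suffix marks probes shared by several transcripts of a gene, went the same way with a wider spread. It gave 380.4, 379 and 208 in 6-week hearts, against 436, 343, 560.0 and 694 before induction, and these groups overlapped. The log2 difference of -0.58 did not pass the test (95% interval -1.14 to -0.03, adjusted p = 0.13), nor did that of late repressed from 6-week hearts, 0.65 (adjusted p = 0.12). In early repressed hearts it was 0.84 higher than in 2-week hearts (SE 0.246, adjusted p = 0.0236). That call was lost with the Actb ratio in the model (0.094), without heart 2 of the 2-week group (0.057) and without heart 4 of the early repressed group (0.093).

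Vegfd, a ligand of FLT4, went the opposite way to Vegfa and Vegfb in 6-week hearts. Probe set 1438954_x_at gave 343, 198, 175 and 248 before induction, 449, 228, 317 and 393 in 2-week hearts, 433, 329.6, 344 and 386 in early repressed hearts, 1149, 631 and 1372 in 6-week hearts, and 329.6, 391 and 448 in late repressed hearts. Each 6-week heart lay above every other heart. The mean of 1051 ± 380.1 in 6-week hearts was 4.36 times the 241 ± 74.7 before induction, a log2 difference of 1.89 (SE 0.24, adjusted p = 3.33e-05). It was 1.44 above 2-week hearts (SE 0.24, adjusted p = 0.00171). The 2-week hearts overlapped those before induction and their difference of 0.45 did not pass the test (adjusted p = 0.24). Without the 2 Xist-positive hearts and without the 6-week heart of the high Actb ratio, as under all alternatives run, the 6-week differences remained called.

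Both further Vegfd probe sets showed the same pattern. In 6-week hearts 1438953_at gave 996, 646 and 1319 and 1449528_at gave 1148, 779 and 905. Before induction the signals were 209.9, 147, 156 and 258 on 1438953_at and 223, 160.5, 201 and 288 on 1449528_at. The log2 differences were 2.07 (SE 0.257, adjusted p = 2.88e-05) and 1.89 (SE 0.252, adjusted p = 5.32e-05). After the late repression Vegfd fell on all 3 probe sets, by 1.27, 1.82 and 1.53 on the log2 scale for 1438954_x_at, 1438953_at and 1449528_at (adjusted p = 0.00236, 0.000298 and 0.000902). With the Actb ratio in the model the differences were -0.96, -1.46 and -1.43 (adjusted p = 0.044, 0.0065 and 0.012). The suffix _x_at marks probes that may also bind other transcripts, and the 3 probe sets share 1 gene and the same hearts, so they are not independent measurements. On each of the 3 probe sets the 6-week hearts did not overlap the group next to them by mean, which was late repressed hearts on 1438954_x_at and 2-week hearts on the others, and all other neighbouring groups overlapped.

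Vegfc, the other lymphatic ligand, was measured by 3 probe sets that gave different results. On 1419417_at the hearts gave 119, 213, 151 and 145 before induction, 149.7, 128, 170.5 and 153 in 2-week hearts, 134, 159, 113 and 90.4 in early repressed hearts, 39.9, 76.6 and 127 in 6-week hearts, and 129, 130.3 and 132 in late repressed hearts. The lowest values were those of 6-week hearts 1 and 2, and all groups next to each other by mean overlapped. The log2 difference of 6-week hearts from hearts before induction was -0.69 (SE 0.216, adjusted p = 0.0277). The call was lost with quantile normalization (adjusted p = 0.10), with arrays scaled to a common median (0.082), with only the 2 groups fitted (0.12), without both Xist-positive hearts (0.095), and without heart 2 or 3 before induction (0.086 and 0.051) or heart 1 or 2 of the 6-week group (0.16 and 0.062). On chip 430B 1439766_x_at had a difference of -1.25 that missed the threshold (adjusted p = 0.052), with 23.6, 38.6 and 125 in 6-week hearts and 114 to 196 before induction. It was called without 6-week heart 3, at -1.81 (adjusted p = 0.0045). On 1440739_at the difference was -0.03 (95% interval -0.54 to 0.47).

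**Figure D1:**
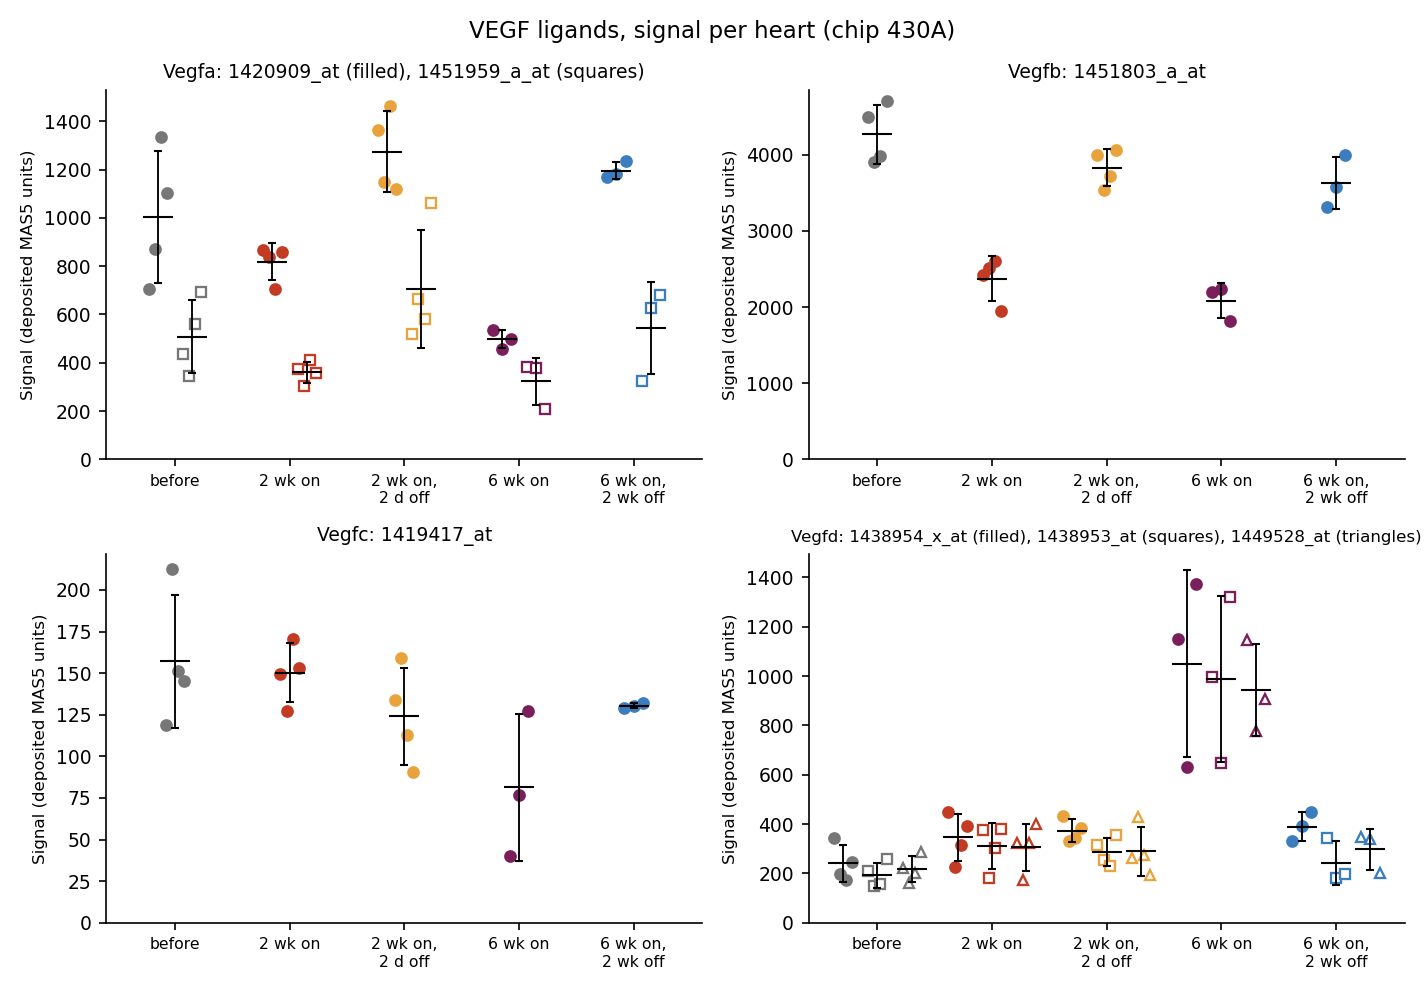
Deposited signal of the VEGF ligands in each heart (points) by group, with the group mean and SD (bars), on chip 430A. Vegfb is at most 2611 in each heart with the transgene on and at least 3320.3 in the others. In the 3 6-week hearts Vegfa is lowest on its brighter probe set and Vegfd is highest. On the other Vegfa probe set the 6-week hearts overlap other groups, and the Vegfc groups overlap.

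Apln, the precursor of apelin, followed the late part of the Vegfa pattern. Its probe set 1451038_at gave 733, 918, 902 and 787 before induction, 856, 554, 879 and 787 in 2-week hearts, 874, 845, 1120.3 and 991 in early repressed hearts, 382, 490.1 and 601 in 6-week hearts, and 876, 979 and 1088 in late repressed hearts. Of the 15 hearts outside the 6-week group, only heart 2 of the 2-week group, at 554, lay below a 6-week heart. Apln averaged 491 ± 109.5 in 6-week hearts against 835 ± 89.6 before induction, a log2 difference of -0.72 (SE 0.166, adjusted p = 0.00468). It was -0.87 without 6-week heart 3 (adjusted p = 0.0027) and -0.71 without both Xist-positive hearts (adjusted p = 0.039). After the late repression it averaged 981 ± 106, which was 0.95 above 6-week hearts (SE 0.177, adjusted p = 0.00137) with no overlap, and 1.13 with the Actb ratio in the model (adjusted p = 0.0020). The differences of 2-week hearts from hearts before induction (-0.13) and of early repressed from 2-week hearts (0.31) did not pass the test (adjusted p = 0.67 and 0.17). The difference of 6-week from 2-week hearts, -0.60 (adjusted p = 0.035), missed the threshold under 9 of the 29 alternatives run, among them scaling to a common median (0.12) and leaving out heart 1, 3 or 4 of the 2-week group or heart 1 or 2 of the 6-week group (0.071 to 0.17). By mean, all neighbouring groups of Apln overlapped.

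Apln and Vegfd lie on the X chromosome, and 2 hearts before induction carried Xist. In those hearts, 3 and 4, Apln gave 902 and 787 and Vegfd (1438954_x_at) 175 and 248. Hearts 1 and 2 gave 733 and 918 for Apln and 343 and 198 for Vegfd, and the pairs overlapped for both genes.

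Aplnr, the apelin receptor, spanned a wide range, and its probe sets parted in 1 heart. The brighter probe set, 1438651_a_at, gave 3907, 2340.2, 2129 and 1725 before induction, 5690.5, 4180.2, 4609.6 and 4343 in 2-week hearts, 2636, 2481, 2619 and 2614 in early repressed hearts, 396, 899 and 5667 in 6-week hearts, and 3181, 3709 and 3251 in late repressed hearts. The 2-week hearts lay above all early repressed, late repressed and before-induction hearts, and 6-week hearts 1 and 2 lay below all of them. Heart 3 of the 6-week group, the heart with the high Actb ratio, lay among the 2-week hearts. On 1423037_at the same 6-week hearts gave 139.6, 244 and 489.8, so there heart 3 was low too, against 1174, 621, 603 and 532 before induction. The 2-week hearts gave 1072, 996, 1057 and 1202 on that probe set, the early repressed hearts 776, 812, 1043 and 807, and the late repressed hearts 679, 977 and 916.

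On 1423037_at Aplnr was lower in 6-week hearts than before induction by a log2 difference of -1.27 (SE 0.271, adjusted p = 0.00301) and lower than in 2-week hearts, with a difference of -1.86 (SE 0.271, adjusted p = 0.000572). It rose by 1.53 in late repressed over 6-week hearts (SE 0.29, adjusted p = 0.00152), and none of these 3 comparisons had overlapping hearts. Without 6-week heart 3 the differences were -1.66, -2.26 and 1.93 (adjusted p = 0.00018, 1.88e-05 and 0.00012). With the Actb ratio in the model the last was 1.96 (adjusted p = 0.00070). On 1438651_a_at the difference of 6-week hearts from hearts before induction was -0.87 and did not pass the test (95% interval -1.92 to 0.18, adjusted p = 0.23). Without 6-week heart 3 it was -1.92 (adjusted p = 0.000105), and -1.59 with the Actb ratio in the model (adjusted p = 0.0021). Late repressed hearts stood 1.35 above 6-week hearts on that probe set (adjusted p = 0.086), and 2.40 without 6-week heart 3 (adjusted p = 2.93e-05) and 2.62 with the Actb ratio in the model (adjusted p = 0.00039). The difference of 6-week from 2-week hearts was -1.81 (adjusted p = 0.0348) and ranged widely when 1 heart was left out, being -2.86 without 6-week heart 3 (adjusted p = 6.02e-06) and -1.02 without 6-week heart 1 (adjusted p = 0.20). The call was lost under 9 of the 29 alternatives: with arrays scaled to a common median (0.067), no filter (0.051), only these groups fitted (0.18), without any 1 of the 4 2-week hearts (0.059 to 0.074) and without 6-week heart 1 or 2 (0.20 and 0.12).

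At 2 weeks the Aplnr level was on the high side. On 1438651_a_at it averaged 4706 ± 679.9 in 2-week hearts against 2525 ± 956 before induction, with no overlap, yet the log2 difference of 0.94 did not pass the test (95% interval -0.03 to 1.91, adjusted p = 0.23), since all 18 hearts share 1 estimate of the spread. It was called without 6-week heart 3 (0.94, adjusted p = 0.0076) and when only the groups compared were fitted (adjusted p = 0.013). Early repressed hearts averaged 2587 ± 71.4, a difference of -0.84 from 2-week hearts (adjusted p = 0.22). It was likewise called without 6-week heart 3 (adjusted p = 0.0088) and when only these groups were fitted (adjusted p = 0.00039). With the Actb ratio in the model it was -0.13 (adjusted p = 0.82). The slope of that model rests largely on 6-week heart 3, which reached 5667 on this probe set. The part of the ratio in this difference was not tested apart from that heart. On 1423037_at the 2-week difference was 0.60 (adjusted p = 0.155) and passed only without heart 1 before induction (0.83, adjusted p = 0.034). By mean of 1438651_a_at, 2-week hearts stood apart from late repressed hearts, and these from early repressed hearts, while early repressed hearts, hearts before induction and 6-week hearts overlapped.

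Kdr, the main signalling receptor of VEGF-A, was lower in 6-week hearts by a margin that depended on the processing. Probe set 1449379_at gave 1928, 1523, 1330.1 and 1568 before induction, 2458, 1797, 1696 and 1358 in 2-week hearts, 1270.4, 1476, 2054 and 1748 in early repressed hearts, 722, 971 and 1331 in 6-week hearts, and 1602, 2195 and 1595 in late repressed hearts. The lowest signals were those of 6-week hearts 1 and 2, while 6-week heart 3 overlapped the hearts before induction. Kdr averaged 1008 ± 306 in 6-week hearts against 1587 ± 249 before induction, a log2 difference of -0.66 (SE 0.212, adjusted p = 0.0329). It was -0.84 against 2-week hearts (SE 0.212, adjusted p = 0.0229). Late repressed hearts averaged 1797 ± 345, which was 0.83 above 6-week hearts (SE 0.227, adjusted p = 0.0156). Without 6-week heart 3 these differences were -0.87, -1.05 and 1.04 (adjusted p = 0.012, 0.0080 and 0.0072), and the last was 1.12 with the Actb ratio in the model (adjusted p = 0.0098). By mean, all neighbouring Kdr groups overlapped.

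The first Kdr difference, between 6-week hearts and hearts before induction, missed the threshold with arrays scaled to a common median (-0.46, adjusted p = 0.17), with only these groups fitted (0.059), and without both Xist-positive hearts (0.067). It also did so without heart 1, 2 or 4 before induction or heart 1 or 2 of the 6-week group (0.056 to 0.17). The 6-week to 2-week difference was lost under the same scaling (0.073), with only those groups fitted (0.098), and without heart 1 or 2 of either group (0.053 to 0.12). The late repression call was lost under that scaling (0.060), with only those groups fitted (0.073), without 6-week heart 1 (0.077) and without late repressed heart 2 (0.079).

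Flt1, the receptor that binds VEGF-A and VEGF-B, was not lower in 6-week hearts on its representative probe set. Probe set 1419300_at gave 1231, 1258, 1123 and 962 before induction, 1268, 869, 1076 and 1061 in 2-week hearts, 845, 734, 885 and 726 in early repressed hearts, 962, 1393 and 939.8 in 6-week hearts, and 982, 962 and 908 in late repressed hearts. Early repressed hearts were the lowest group and lay below all hearts before induction and all late repressed hearts. Their log2 difference from hearts before induction was -0.49 (SE 0.138, adjusted p = 0.0443), and the call was lost under 4 of the 10 alternatives that kept all hearts (0.054 to 0.090), without both Xist-positive hearts (0.059) and without 10 of the 18 hearts when each was left out in turn. The difference of 6-week hearts from hearts before induction was -0.07 (95% interval -0.38 to 0.24, adjusted p = 0.77).

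The other Flt1 probe sets gave differing results. On 1451756_at no comparison passed the test, with -0.18 for 6-week hearts over hearts before induction (adjusted p = 0.62). On 1454037_a_at Flt1 averaged 383 before induction, 237 in 2-week hearts and 243 in 6-week hearts. Neither fall was called with all hearts. With each heart left out in turn the 2-week difference was -0.73 to -0.50, called in 2 of 18 fits. The 6-week difference was -0.74 to -0.32, called in 3 of 18. Early repressed hearts were 0.60 above 2-week hearts on this probe set (adjusted p = 0.046), where 1419300_at had -0.39 (adjusted p = 0.054, and 0.040 without 6-week heart 3). That call was lost under 14 alternatives, 9 of which left out 1 heart (adjusted p = 0.051 to 0.18 over the 14), and the difference was 0.39 with the Actb ratio in the model. On 1440926_at of chip 430B the 6-week hearts gave 606, 651 and 323 and the late repressed hearts 309, 242 and 268, and the log2 difference of late repressed from 6-week hearts was -0.86 (SE 0.216, adjusted p = 0.0286). It was lost when only these groups were fitted (0.21), with no mean-variance trend (0.071), without 6-week heart 1 or 2 (0.12 and 0.13) and without late repressed heart 2 or 3 (0.096 and 0.077). It was -1.17 without 6-week heart 3 (adjusted p = 0.0017) and -1.16 with the Actb ratio in the model (adjusted p = 0.012). The 6-week hearts also differed by 0.45 from hearts before induction and by 0.68 from 2-week hearts, which did not pass the test (adjusted p = 0.22 and 0.091), but were called higher without 6-week heart 3, at 0.76 and 0.99 (adjusted p = 0.019 and 0.0062). Which Flt1 transcripts, membrane-bound or soluble, each probe set measures was not analysed here.

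**Figure D2:**
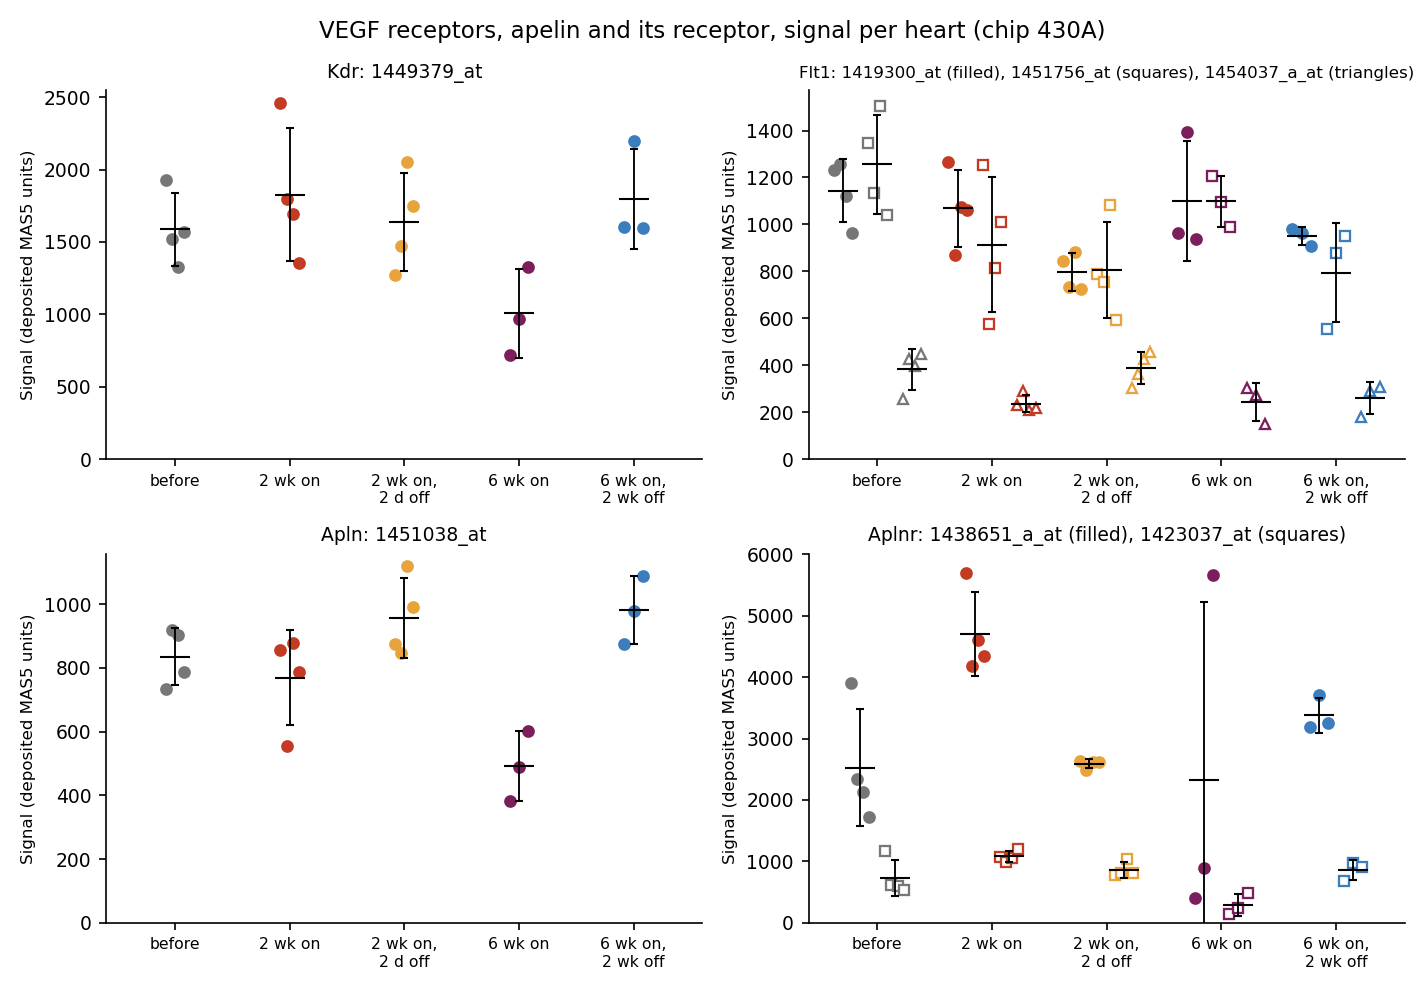
Deposited signal of the VEGF receptors, Apln and Aplnr in each heart (points) by group, with the group mean and SD (bars), on chip 430A. The 6-week hearts are lowest for Aplnr on 1423037_at and have the lowest mean for Apln, while 6-week heart 3 reaches 5667 on the other Aplnr probe set (whose 6-week SD bar is cut at 0), and on Flt1 1419300_at the early repressed hearts lie below all hearts before induction.

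Counted by their representative probe sets, the 8 genes changed little after 2 weeks of induction and widely after 6. In 2-week hearts over hearts before induction, 0 of 8 were called higher and 1 lower (Vegfb), beside 5.01% called of all 33084 probe sets (2.66% up, 2.35% down). In 6-week hearts over hearts before induction, 1 was called higher (Vegfd) and 5 lower (Vegfa, Vegfb, Vegfc, Kdr and Apln), beside 13.2% of all probe sets called (5.65% up, 7.54% down). All 8 representative probe sets are on chip 430A, where larger shares were called than over both chips. Of its 15565 probe sets, 668 were called higher and 634 lower in 2-week hearts. In 6-week hearts 1318 were called higher and 2019 lower. Both comparisons use the same hearts before induction. The median log2 difference of the 8 genes in 6-week hearts was -0.71, beside -0.08 over all probe sets. In 6-week over 2-week hearts, 1 was called higher (Vegfd) and 4 lower (Vegfa, Kdr, Apln and Aplnr), beside 4.06% of all probe sets called (1.69% up, 2.36% down). On chip 430A alone 424 were called higher and 601 lower.

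After repression the counts ran the other way. In early repressed over 2-week hearts, 2 genes were called higher (Vegfa and Vegfb) and 0 lower, beside 9.73% of all probe sets called (5.29% up, 4.44% down). In late repressed over 6-week hearts, 4 were called higher (Vegfa, Vegfb, Kdr and Apln) and 1 lower (Vegfd), beside 10.9% of all probe sets called (6.48% up, 4.41% down). The median log2 difference of the 8 genes was then 0.81, beside 0.02 over all probe sets. Of the 15565 probe sets of chip 430A, 1474 were called higher and 1333 lower in early repressed over 2-week hearts. In late repressed over 6-week hearts 1768 were called higher and 1204 lower. Without 6-week heart 3, 7 genes were called in that comparison in place of 5, with Vegfc (0.76, adjusted p = 0.039) and Aplnr added. With each heart left out in turn the number was 4 to 7. The repression comparisons share their 2-week or 6-week hearts with the induction comparisons, so a rise after a fall is in part the same hearts counted again.

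Against hearts before induction, early repressed hearts had 0 genes called higher and 1 lower (Flt1), beside 3.23% of all probe sets called (1.77% up, 1.46% down). On chip 430A alone 404 of 15565 were called higher and 423 lower. Late repressed hearts had 0 of 8 genes and 0 of 17 probe sets called by limma in either direction, beside 2.57% of all probe sets (1.17% up, 1.4% down). For late repressed hearts the counts on chip 430A were 250 higher and 301 lower. At an unadjusted p under 0.05 3 of the 17 probe sets passed. On the representative probe sets the differences ran from -0.25 for Flt1 to 0.62 for Vegfd (95% interval 0.12 to 1.12, adjusted p = 0.165). The largest rise after Vegfd was 0.48 for Aplnr. Some other probe sets lay further below: Flt1 1451756_at averaged 794 in late repressed hearts against 1256 before induction, and Vegfc 1439766_x_at 82.6 against 141. With each heart left out in turn their log2 differences were -0.79 to -0.42 and -1.09 to -0.41. Vegfc 1440739_at was higher, at 278 against 222. A p that missed the threshold does not show that these genes had returned fully. Genes whose hearts did not overlap numbered 2 of 8 in 2-week hearts over hearts before induction (11.1% of all probe sets), 3 in early repressed over 2-week hearts (19%) and 1 in early repressed hearts over hearts before induction (13.6%). They numbered 4 in 6-week hearts over hearts before induction (20.9%), 4 in 6-week over 2-week hearts (14.5%), 6 in late repressed over 6-week hearts (25.1%) and 0 in late repressed hearts over hearts before induction (14.4%).

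**Figure D3:**
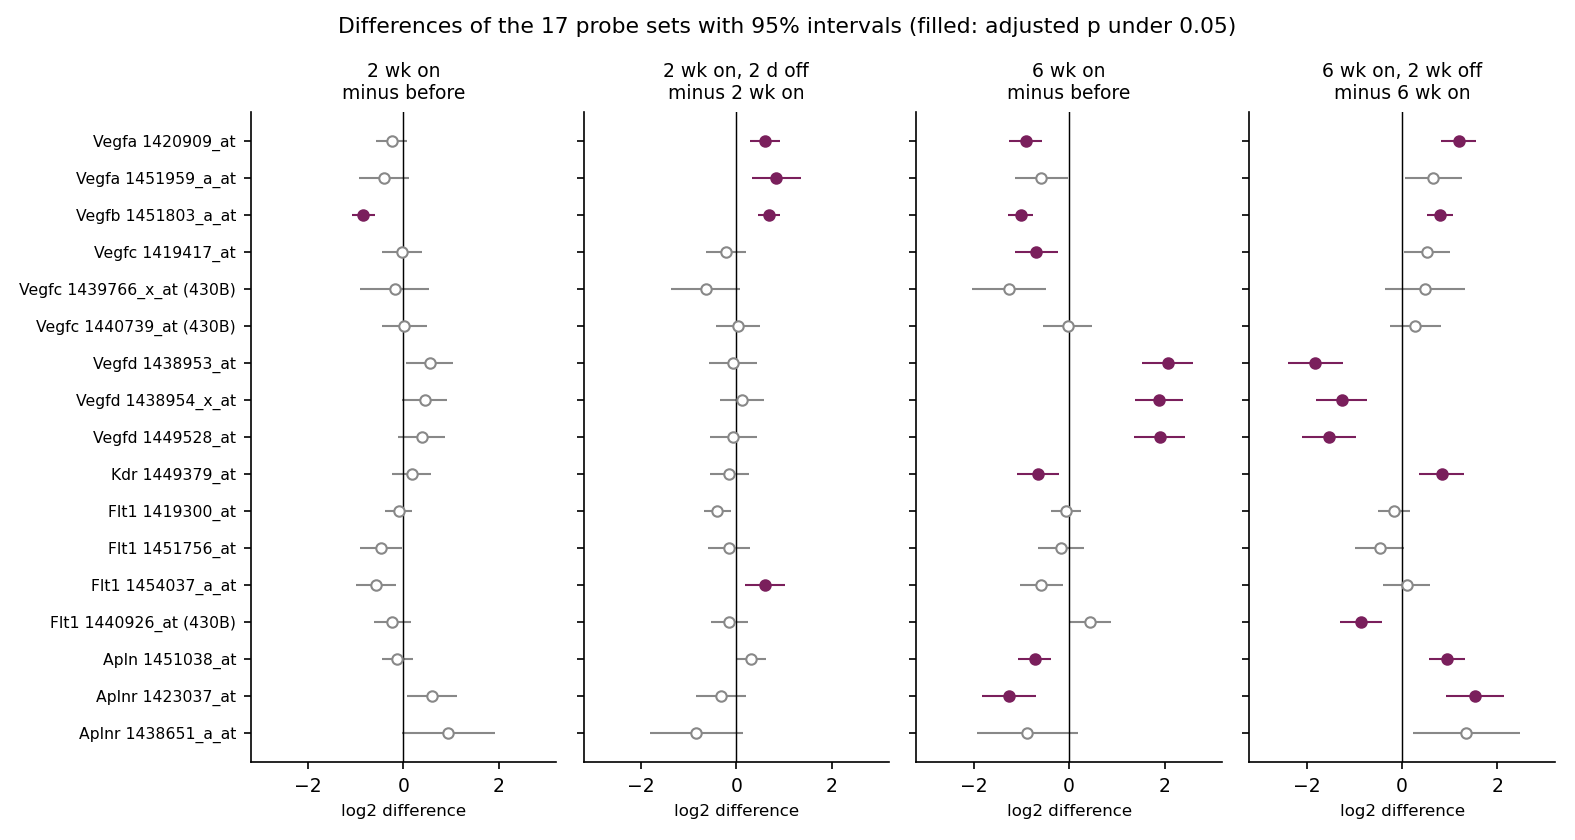
Log2 differences of the 17 probe sets with 95% intervals in 4 comparisons, filled where the adjusted p was under 0.05. Vegfb is the single call after 2 weeks, both Vegfa probe sets, Vegfb and 1 Flt1 probe set are higher in early repressed over 2-week hearts, the 3 Vegfd probe sets rise and Vegfb, Kdr, Apln and 1 probe set each of Vegfa, Vegfc and Aplnr fall in 6-week hearts, and in late repressed over 6-week hearts 1 Vegfa probe set, Vegfb, Kdr, Apln and 1 Aplnr probe set are higher while Vegfd and 1 Flt1 probe set are lower.

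The other genes of the pathway were taken from lists and counted by 1 probe set a gene. The counts of these lists and of the marker lists below stand beside the shares of all probe sets called. These were 5.01% in 2-week and 13.2% in 6-week hearts over hearts before induction, and 10.9% in late repressed over 6-week hearts. The shares on chip 430A alone were larger. Of its 15565 probe sets, 1318 were called higher and 2019 lower in 6-week hearts over hearts before induction. In late repressed over 6-week hearts 1768 were higher and 1204 lower. In 6-week hearts 2 of 4 co-receptors and further family members past the filter were called lower and 0 higher. They were the neuropilins, which bind VEGF beside its receptors, with log2 differences from hearts before induction of -0.57 for Nrp1 (adjusted p = 0.0091) and -0.68 for Nrp2 (adjusted p = 0.026). Both were higher in late repressed than in 6-week hearts, by 0.60 and 0.78 (adjusted p = 0.011 and 0.019). The part of the Actb ratio in this and the other repression differences of genes outside the 8 was not tested. The lymphatic receptor Flt4, which binds the products of Vegfc and Vegfd, differed by 0.10 (adjusted p = 0.68) in 6-week hearts.

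Of 8 angiopoietin and Notch genes past the filter, which act with VEGF in vessel growth and stability, 4 were called lower in 6-week hearts and 0 higher. Dll4, the Notch ligand of sprouting endothelium, had a log2 difference of -1.08 (adjusted p = 0.00023). Tek, the angiopoietin receptor, had -0.61 (adjusted p = 0.014) and its ligand Angpt1 -1.12 (adjusted p = 0.027). Hey1, a Notch target, had -0.82 (adjusted p = 0.0499). Dll4, Tek and Hey1 were higher in late repressed than in 6-week hearts, by 1.31, 0.52 and 0.93 (adjusted p = 0.00013, 0.048 and 0.043).

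Genes known to regulate the ligands moved in both directions. Of 13 hypoxia and coactivator regulators, 3 were called higher and 2 lower in 6-week hearts over hearts before induction. Ppargc1a, a coactivator that raises VEGF-A in muscle, was lower in 2-week hearts (-0.81, adjusted p = 0.0054) and in 6-week hearts (-1.13, adjusted p = 0.00033), and higher in late repressed than in 6-week hearts (0.86, adjusted p = 0.005). Epas1, a hypoxia-inducible factor abundant in endothelium, was lower in 6-week hearts (-1.29, adjusted p = 0.011). Egln3, Hif1an and Esrra were higher in them (0.86, 0.64 and 0.55), the first a hydroxylase that marks hypoxia-inducible factors for breakdown, the second one that blocks their activity, and the last a nuclear receptor that works with Ppargc1a. Hif1a differed by 0.23 (adjusted p = 0.39).

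Of 13 other targets of hypoxia signalling, 2 were called higher and 1 lower in 6-week hearts. Ddit4, an inhibitor of mTOR that other stress signals also induce, had a log2 difference of 2.90 (adjusted p = 2.4e-07), and P4ha2, a collagen hydroxylase, 0.93 (adjusted p = 0.0013). Adm, the vascular peptide adrenomedullin, had -0.53 (adjusted p = 0.042). The glycolytic genes Pgk1 and Ldha differed by 0.34 and -0.05 and did not pass the test.

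Downstream of the receptors, 2 of 15 signalling genes past the filter were called higher in 6-week hearts and 0 lower, Gnai2 (0.57, adjusted p = 0.0051), a G protein subunit to which APLNR couples, and Sphk1 (0.94, adjusted p = 0.010). Of 9 genes that bind or release ligand 1 was called higher, the matrix protein Ccn2 (1.57, adjusted p = 0.0023), which can bind VEGF-A, and 0 lower. Both counts were near the share of 13.2% called over all probe sets of both chips. The 9 genes were all measured on chip 430A, where the share was larger, with 1318 of 15565 probe sets called higher and 2019 lower. In 2-week hearts 1 of these 9 was called lower, the heparan sulphate proteoglycan Sdc4 (-1.15, adjusted p = 0.00027). Of the signalling genes, Pik3r1 was then lower (-0.95, adjusted p = 0.032), the regulatory subunit of PI3-kinase upstream of Akt.

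Kdr and Aplnr are expressed largely in endothelium, and in whole hearts fewer cells of a type and less RNA per cell cannot be told apart. Of 18 endothelial markers, all past the filter, 4 were called lower and 1 higher in 6-week hearts over hearts before induction. Emcn differed by -1.17 (adjusted p = 3.1e-06), Erg by -1.11 (adjusted p = 0.00058), Pecam1 by -1.02 (adjusted p = 0.0031) and Icam2 by -0.86 (adjusted p = 0.0084), while Sox17 differed by 0.71 (adjusted p = 0.048). The median over the list was -0.06, and Cdh5 and Eng differed by -0.19 and -0.05. In 6-week over 2-week hearts 5 of the 18 were called lower and 0 higher, with a list median of -0.33. In late repressed over 6-week hearts 5 were higher and 1 lower. The summed signal of the 15 endothelial markers on chip 430A lay between 16392 and 17636 before induction, 16657 and 19287 in 2-week hearts, 16300.2 and 20392 in early repressed hearts, 13869.8 and 17615 in 6-week hearts, and 15724 and 18541 in late repressed hearts. The ranges overlapped, but only the highest 6-week heart, at 17615, reached those of the other groups. The remaining 6-week hearts lay below every heart of the other groups. The part of endothelial content in the falls of Kdr and Aplnr was not tested.

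Other marker lists moved beside the ligands. Prox1, a lymphatic marker that heart muscle also expresses, was lower in 6-week hearts (-0.78, adjusted p = 0.0069), and it was the 1 called of 5 lymphatic markers. The others differed by 0.03 (Mmrn1) to 0.44 (Lyve1), and the list median was 0.10. In late repressed over 6-week hearts Lyve1 and Pdpn were called lower (-1.12 and -0.40, adjusted p = 0.044 and 0.034), while Prox1 differed by 0.57 (adjusted p = 0.054). Of 9 fibroblast markers 3 were called higher in 6-week hearts and 0 lower: Pi16 by 1.36 (adjusted p = 0.00012), Mfap5 by 1.47 (adjusted p = 0.0022) and Col1a1 by 1.12 (adjusted p = 0.0048). The others all had negative differences, from -0.02 for Dcn to -0.50 for Lum, and the median over the list was -0.05. Fibroblasts are a known source of VEGF-D, and the summed fibroblast signal lay between 38419 and 44223 in 6-week hearts and between 38127 and 47602 before induction. This sum of raw signals rests largely on Dcn and Gsn. They averaged 15594 and 15449 before induction, where the mean sum was 41233, so changes of the dimmer markers barely move it. The part of fibroblast content in the rise of Vegfd was not tested. Of 10 smooth muscle and pericyte markers 2 were higher and 2 lower, with a list median of 0.12. The higher were Cnn1 (1.96, adjusted p = 0.00048) and Cspg4 (0.56, adjusted p = 0.0083). The lower were Abcc9 (-2.77, adjusted p = 9.8e-09) and Kcnj8 (-0.94, adjusted p = 0.00014), subunits of a potassium channel found in pericytes and heart muscle. Of 9 macrophage and leukocyte markers 0 were called by limma in 6-week hearts (1 at an unadjusted p under 0.05), and of 10 heart muscle markers Ryr2 was higher (0.62) and Pln lower (-0.71).

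**Figure D4:**
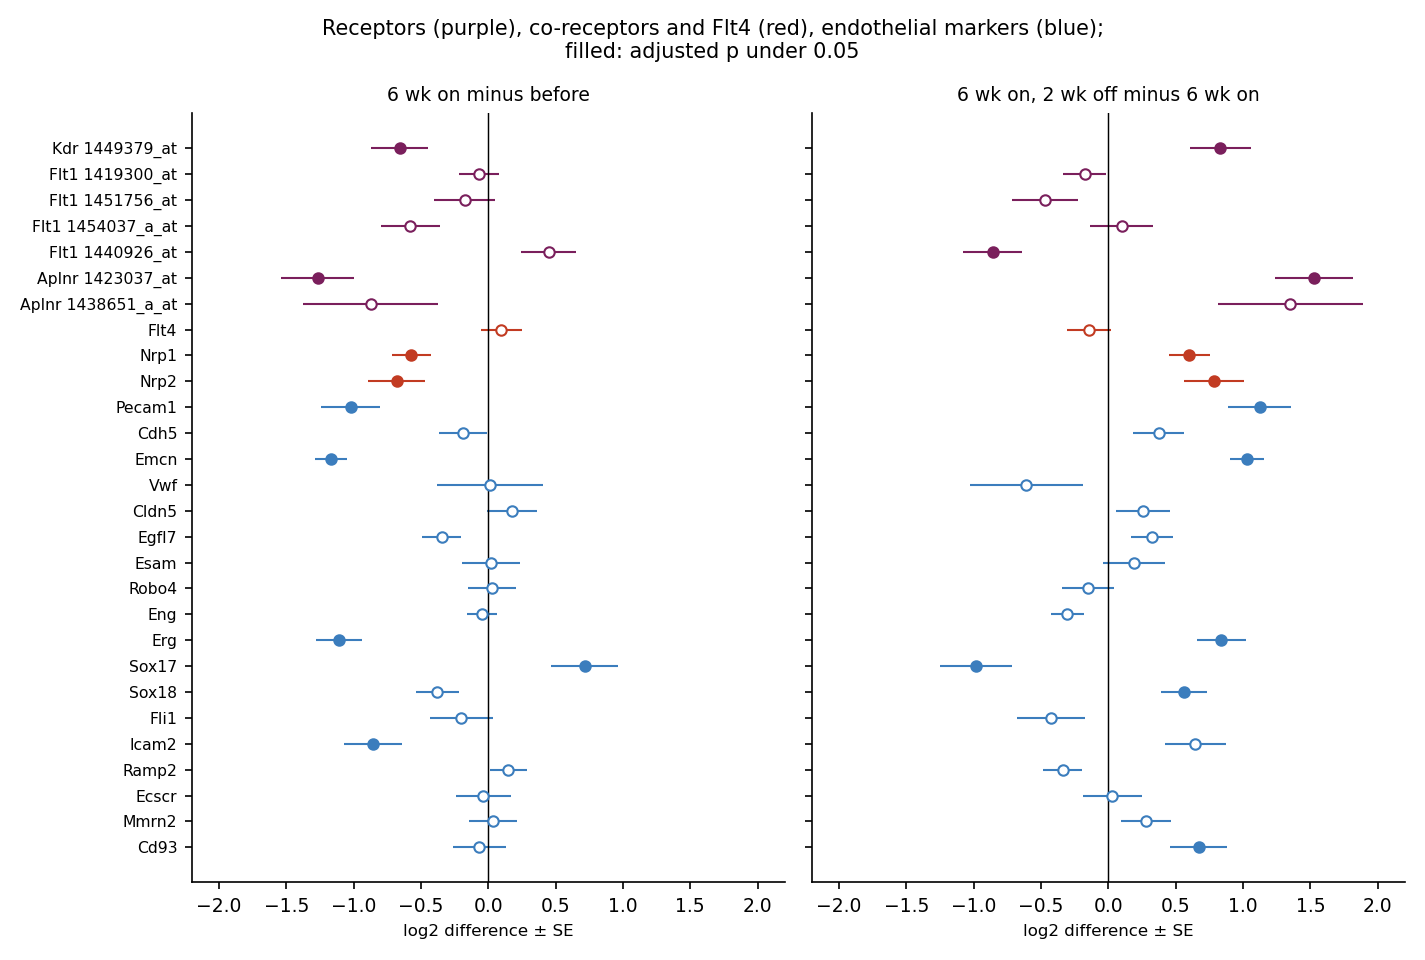
Log2 differences with their standard errors of the receptors (purple), Flt4 and the neuropilins (red) and 18 endothelial markers (blue), filled where called. In 6-week hearts Kdr, 1 Aplnr probe set and the neuropilins are low together with Emcn, Erg, Pecam1 and Icam2, while Flt1 on 1419300_at and most other markers lie near 0.

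The genes most like each member were named by the smallest mean absolute difference in the log2 changes of the 4 later groups from hearts before induction, over 9268 genes of chip 430A and all 18 hearts. Nearest to Vegfb were Rdm1, Adssl1 and Fbln1, at 0.034 to 0.048, and nearest to Vegfa were Zfp36l2, Gabarapl2 and Mrps18a, at 0.046 to 0.064. Nearest to Vegfd were Slc7a5, an amino acid transporter (0.086), Ltbp2, a matrix protein (0.089), and Uchl1, a ubiquitin hydrolase (0.12). Slc7a5 changed by 1.80 and Ltbp2 by 1.87 in 6-week hearts, beside 1.89 for Vegfd. Cenpf, Stard3nl and Cox15 were nearest to Apln (0.027 to 0.044), and Sgce, Nup153 and Cd83 to Kdr (0.056 to 0.062). Aplnr had no gene closer than Slamf9, at 0.20. Likeness over 4 changes is a description, and the changes share the hearts before induction.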

How the data were processed

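RNA of 18 mouse hearts was hybridised to the Affymetrix chips 430A and 430B. The deposited values are linear intensity values, made with MAS5 per the submitters' processing notes, with no version named. Arrays of 1 chip had 2% trimmed means within 0.006% of their mean, so signals were used as deposited. Scan dates, batches and detection calls were not used. The number of arrays limits the precision.

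Signals were log2-transformed after adding 10% of the trimmed mean (50.02 on 430A, 12.25 on 430B). Probe sets with a mean signal of at least 20% of the trimmed mean were kept, 33084 in all. limma 3.58.1 (R 4.3.3) fitted each whole chip by lmFit and eBayes with a mean-variance trend, 1 mean for every group and 1 spread over 18 hearts, and p-values were adjusted within a chip by the Benjamini-Hochberg method. From the fit came 7 comparisons and 1 difference between repressions. The script was tested on simulated data. The labels describe individual mice, so the p-values rest on the spread between mice. Log2 differences are on the scale of signal plus offset and understate changes of dim probe sets, while means ± SD are of deposited signals.

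A gene with several probe sets is represented by its brightest on 430A. Gene names come from the platform annotation, updated through RefSeq, and all 8 genes matched. Promoter windows were given for 7 of them. The members and lists were chosen with earlier results of these data known. Named genes are the members, up to 4 called genes of each list and comparison, 3 like genes a member, Akt1 and Xist; uncalled genes named for contrast were chosen after their values were seen. Alternatives were quantile normalization, scaling to the median, offsets of 2% and 40%, no filter or a filter at 50%, fits of only the groups compared, no trend, the replicate block, the Actb 3′ to 5′ ratio as a covariate, leaving out both Xist-positive hearts, and leaving out each heart.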

Additional observations from a re-analysis of the deposited data

Results flagged for a closer look

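In 4 of 51 groups of 4 hearts, each tested for 1 probe set, a heart lay far from the others, and chance alone gives about 1 in 20 such groups. Vegfc on 1439766_x_at was 109.8 in heart 4 of the early repressed group and 61.8 to 65.2 in the other hearts of the group. Aplnr on 1423037_at was 1174 in heart 1 before induction, against 532 to 621 in the others, and that heart was also highest on the other Aplnr probe set. In the early repressed group Aplnr was 1043 in heart 3 on 1423037_at, against 776 to 812 in the others, and 2481 in heart 2 on 1438651_a_at, against 2614 to 2636.

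The difference between the repressions was tested as late repressed minus 6-week hearts, less early repressed minus 2-week hearts, in which 155 of 33084 probe sets passed the test (0.469%, of which 0.236% up and 0.233% down). On chip 430A 72 of 15565 were called up and 67 down. The repressions lasted 2 weeks and 2 days, so duration and stage cannot be told apart. Of the 17 probe sets, 2 were called and both stood for genes with the strongest 6-week changes. On Vegfd 1438953_at the log2 difference was -1.75 (SE 0.364, adjusted p = 0.0266), and on the other Vegfd probe sets -1.39 and -1.47 (adjusted p = 0.059 and 0.057). On Aplnr 1423037_at it was 1.85 (SE 0.383, adjusted p = 0.0266), and on 1438651_a_at 2.19 (adjusted p = 0.16), which without 6-week heart 3 was 3.24 and called (adjusted p = 9.66e-05) and with the Actb ratio in the model 2.75 (adjusted p = 0.0025). Kdr had 0.97 (adjusted p = 0.13) and was called without 6-week heart 3, at 1.19 (adjusted p = 0.047). Leaving out each heart in turn gave -2.01 to -1.53 for this Vegfd probe set and 1.5 to 2.25 for this Aplnr probe set, and each missed the threshold in 6 of 18 cases.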

How the results depend on the processing

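Of 3936 alternative values for the 136 single differences of the 17 probe sets, 3788 kept their direction and side of the threshold, 97 lost a call, 51 gained one and 0 reversed, counting 76 sign changes where neither value was called as kept. With arrays scaled to a common median the share of called probe sets that were higher was 67.7% in place of 53.1% (2-week hearts over hearts before induction), 40.2% for 54.3% (early repressed over 2-week), 65.3% for 54.7% (early repressed over before induction), 70.5% for 42.8% (6-week over before induction), 63.6% for 41.7% (6-week over 2-week), 43.1% for 59.5% (late repressed over 6-week), 63.0% for 45.5% (late repressed over before induction) and 40.2% for 50.3% (late less early repression). The median over chip 430A in 6-week hearts over hearts before induction was then 0.07 in place of -0.11. Fitting only the groups compared gave 1698 calls in place of 1069 for early repressed over before induction, 2351 for 4361 for 6-week over before induction, 360 for 1342 for 6-week over 2-week, 933 for 3605 for late repressed over 6-week and 370 for 851 for late repressed over before induction. It gave 2 genes in place of 1 for 2-week over before induction, 4 for 2 for early repressed over 2-week and 2 for 5 for 6-week over 2-week, and median scaling also gave 2 for the last. Without both Xist-positive hearts, which leaves fewer hearts, the calls were 524 in place of 1658 for 2-week, 509 for early repressed, 2115 for 6-week and 276 for late repressed hearts, each over hearts before induction. Without a trend the late repressed count was 560.0. With the Actb covariate the late repressed over 6-week count was 1582. The late less early count of 155 was 87 with median scaling, 100 with no filter, 98 without a trend and 335 with the Actb covariate. Flt1, the 1 gene called in early repressed hearts over hearts before induction, was lost, leaving 0, with median scaling, no filter, no trend or the replicate block.

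Leaving out each heart in turn gave 1019 to 2085 calls for 2-week over before induction (lowest without heart 3 before induction), 502 to 1664 for early repressed over before induction (highest without 6-week heart 3), 730.0 to 1461 for 6-week over 2-week, 2221 to 3726 for late repressed over 6-week (lowest without 6-week heart 3), 366 to 1320.0 for late repressed over before induction and 71 to 297 for the late less early difference. Genes called were 1 to 2, 2 to 4, 0 to 1 and 1 to 6 for 2-week over before induction, early repressed over 2-week, early repressed over before induction and 6-week over 2-week. They were 4 to 7 for 6-week over before induction and also 4 to 7 for late repressed over 6-week. The replicate numbers did not pair the hearts: hearts of different groups with the same number had a median correlation of -0.018 on 430A (33 pairs, -0.156 to 0.325). With the replicate block 3962 probe sets in place of 4361 were called in 6-week hearts over hearts before induction, and 6 genes in both fits. The causes of these shifts were not tested. The offset understates the differences of dim probe sets such as Vegfc 1419417_at, with a mean signal of 131 against a trimmed mean of 500.2.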
